A study of Mus musculus with 18 samples.

Results

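The TNF receptor superfamily members Tnfrsf1b, Tnfrsf8, Cd27 and Ltbr, which lack a death domain and are targeted by 3 sgRNAs each, were followed through a pooled CRISPR knockout screen of tumour cells exposed to an IgA antibody in mice. They were taken by gene name from the table of raw reads, and are 4 of the 76 genes that the library targets (12 of 252 sgRNAs). The library also holds 24 non-targeting sgRNAs as the control. Beside them it targets 5 receptors of the same superfamily that carry a death domain, and Tnfrsf19, which also lacks one and is not among the 4.

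Receptors of this superfamily bind trimeric ligands on or from other cells. Those with a death domain, such as the TNF receptor Tnfrsf1a and Fas, can recruit Fadd and caspase-8 or Ripk1 and so start cell death. Those without one bind TRAF adaptors instead, and with them the inhibitor of apoptosis proteins Birc2 and Birc3, and mainly activate NF-κB, by the canonical pathway or by the alternative pathway that depends on the kinase NIK. TNFR2, the product of Tnfrsf1b, binds TNF, preferring its membrane form. CD30, from Tnfrsf8, binds the ligand CD153 and is known from activated lymphocytes and Hodgkin lymphoma. CD27 binds CD70 and is a costimulatory receptor of T cells and a marker of memory B cells in humans. The lymphotoxin beta receptor, from Ltbr, binds lymphotoxin and LIGHT, drives the alternative pathway and is needed for lymph nodes to form. Expression of these receptors in the screened cells was not measured here, so whether an sgRNA removed a protein that the cells make is not known from these data.

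The cells were Ba/F3, a mouse pro-B line that depends on interleukin-3, in a sensitised form that the labels call sensBa/F3 and that is the target of an antibody against human Her2. The screen compared ITPK1-WT cells with ITPK1-KO cells, a pool of 6 clones that lack the inositol phosphate kinase ITPK1. Both were transduced separately with the same library, cultured for 10 days and dyed with CellTrace violet (ITPK1-WT) or yellow (ITPK1-KO), and dye and genotype cannot be told apart. A mixture of 20000000 cells was placed in the peritoneum of each of 8 mice that carry a transgene for human CD89, the IgA receptor of myeloid cells. Per the deposited sample legend, mice 1 to 4 received vehicle (PBS) and mice 5 to 8 anti-Her2 IgA. Viable cells were recovered after 16 h and sorted by dye, which gave 16 libraries. With 1 library of each background from before injection there were 18. Strain, age and sex of the mice and the promoter of the transgene are not given in the sources used here. All mice shared 1 transduced pool per background, so the p-values do not cover the spread between pools. Those of edgeR's test draw on the spread of all sgRNAs or genes together. They can therefore be small where the printed SE, from the mice for 1 sgRNA or gene, is large.

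Reads per library ran from 317564 to 808586, with a median of 1326 to 3311 reads per sgRNA. The numbering of read files in the labels has 2 series, taken here as sample sheets of the sequencing. Mice 1 to 5 are on one. The starting libraries and mice 6 to 8 are on the other, so the only IgA mouse on the sheet of the vehicle mice is mouse 5. Each library of vehicle mice came from 2000000 sorted cells. In IgA mice 5 to 8 the sorted cells were 1200000, 2000000, 1000000 and 657000 for ITPK1-WT. For ITPK1-KO they were 1670000, 2000000, 1500000 and 955000. The part of sorted cell number in the differences between arms was not tested. Between the arms, the median non-targeting sgRNA moved by −0.059 on the log2 scale with ITPK1 present and by −0.012 without it. The 24 non-targeting sgRNAs spread from −0.21 to 0.16 in the former and from −0.17 to 0.10 in the latter. With ITPK1 present, 1 of the 24 passed edgeR's test under IgA as higher and 8 as lower (adjusted p under 0.05). Of all 252 sgRNAs, 27.8% passed there. The arms lay apart for 9 of the 24. With ITPK1 deleted, 0 passed as higher and 1 as lower. Between backgrounds, 1 passed as higher and 1 as lower in vehicle mice, and 5 and 0 in IgA mice.

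The sgRNA sequences against Ltbr and Cd27 are given because the calls among the receptors fell on these genes. They are written 5′ to 3′, with the 12 bases next to the PAM, where Cas9 tolerates mismatches least, in capitals.
Ltbr-sg-1: ggaagtgtCCCGGCTTACAG
Ltbr-sg-2: ctcattgtCCAGATACACAC
Ltbr-sg-3: tgttcattATAGGAATTATG
Cd27-sg-1: tctctccaGACTACCACACC
Cd27-sg-2: tgctgcatACCTGTGCCATG
Cd27-sg-3: agacaaacACTACTGGACTG
All have 20 nucleotides. Ltbr sg-3 is made up of A and T for the most part. Its GC content of 25% is the lowest found in the library, whose median sgRNA has 50%. The other member sgRNAs have 45% to 60%, and no sgRNA of the library holds the run TTTT, at which the U6 promoter's polymerase stops. By the GRCm38.p6 annotation, Tnfrsf1b and Tnfrsf8 are neighbours on chromosome 4 with no protein-coding gene between them. Cd27 and Ltbr lie on chromosome 6 with 1 protein-coding gene between them, and 1 more separates Ltbr from Tnfrsf1a.

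Before injection, sgRNAs against all 4 receptors were present in both backgrounds, between 55.2% and 76.0% of the reads of 3 average non-targeting sgRNAs. Tnfrsf8 was the most abundant of the 4, at 75.6% (ITPK1-WT) and 76.0% (ITPK1-KO). Cd27 was the least abundant, at 59.4% and 55.2%. Of its sgRNAs, 1 was scarce. Cd27 sg-1 had 141 reads with ITPK1 present and 142 with ITPK1 deleted, which is 4.32% and 5.01% of the median non-targeting sgRNA. It ranked 9th and 12th from the scarcest of the 252, and in recovered libraries it had 80 to 185 reads, against 854 to 3977 for the other 11. The low level was thus shared by both pools. Its part in loss of cells, cloning or counting was not tested. Among the others, Ltbr sg-1 stood at 34.0% and 46.4%, and the remaining 10 stood between 51.9% and 90.3%. The Cd27 results therefore rest on sg-2 and sg-3.

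**Figure D1:**
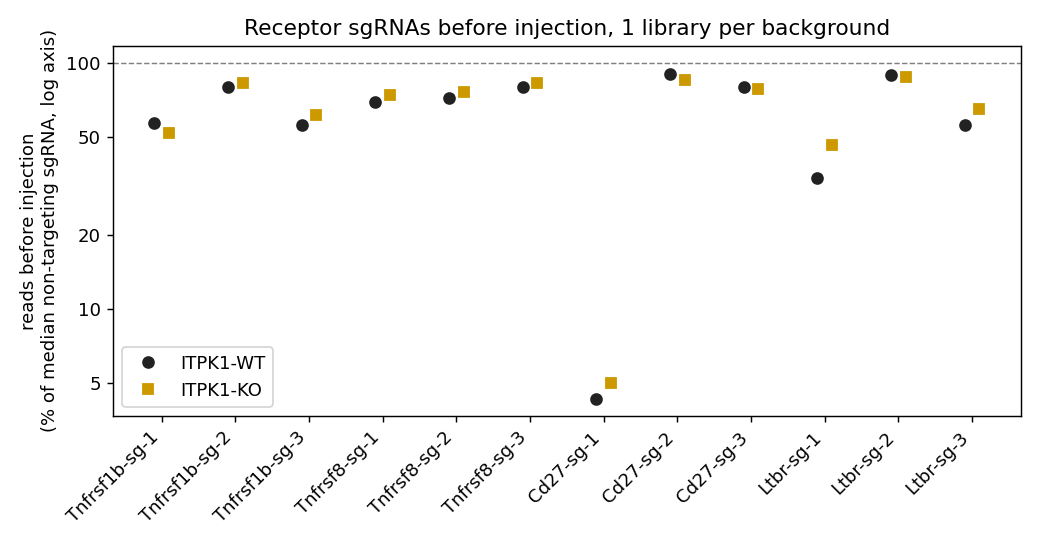
Reads of each of the 12 receptor sgRNAs before injection, as a percentage of the median non-targeting sgRNA of the same library (log axis, dashed line at 100%); circles are ITPK1-WT and squares ITPK1-KO cells, 1 library each. Cd27-sg-1 stands at 4.32% and 5.01%, and the other 11 between 34.0% and 90.3%.

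The first comparison asked which receptors' sgRNAs gained or lost abundance under IgA when ITPK1 is present. Of the 4 receptors, Ltbr passed the test, with sgRNAs 1.06-fold as abundant in IgA mice as in vehicle mice. The background is high here. At an adjusted p under 0.05 (edgeR's quasi-likelihood test, Benjamini-Hochberg over all genes), 36.8% of the 76 genes passed, so 1 of 4 is no more than the share in the library. The mice of both arms lay apart for 30.3% of genes, and for Cd27 among the 4. The median log2 fold change was −0.0038 for the 4 receptors and −0.0033 for all 76 genes.

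In normalised CPM (counts per library total, scaled by TMM, summed over 3 sgRNAs), Ltbr in ITPK1-WT cells stood at 10663, 10561, 10062 and 10831 in vehicle mice 1 to 4 and at 11149, 10809, 11302 and 11810 in IgA mice 5 to 8. Mouse 6 was the lowest of the IgA mice and lay below vehicle mouse 4, so the groups overlapped by 1 mouse on each side. Among the IgA mice, mouse 6 had the most sorted cells (2000000), and mouse 8, the highest, had the fewest (657000). The part of sorted cell number was not tested. The log2 fold change was 0.090 (SE 0.035, n = 4 mice per arm, adjusted p = 0.0105). Mouse 5, on the sheet of the vehicle mice, lay 0.083 above the vehicle mean, and mice 6 to 8 lay 0.10 above it. The vehicle mice had an SD of 0.046. With the sheet as a covariate the value was 0.075 and the call was lost (adjusted p = 0.229). Scaled to the non-targeting sgRNAs it was larger, at 0.14 (adjusted p = 0.0004).

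The sgRNAs of Ltbr did not move as one. Ltbr sg-3 stood at 3417, 3384, 2937 and 3426 in the vehicle mice and at 4012, 3482, 3844 and 4107 in the IgA mice, without overlap. Ltbr sg-1 stood at 2161, 2257, 2185 and 2269 and at 2497, 2404, 2762 and 2898, also without overlap. Ltbr sg-2, the most abundant, stood at 5085, 4921, 4939 and 5136 in vehicle and at 4640, 4922, 4695 and 4805 in IgA mice, where 3 of 4 IgA mice lay below all vehicle mice. The log2 fold change was 0.24 for sg-1 (SE 0.065, adjusted p = 0.000564) and 0.22 for sg-3 (SE 0.075, adjusted p = 0.000183), both above the highest non-targeting sgRNA (0.16). By size in either direction, these ranked 17 and 20 among all 252 sgRNAs, so other sgRNAs moved further. The log2 fold change of sg-2 was −0.077 (SE 0.024, adjusted p = 0.0492). Its call was lost in 13 of 17 alternative settings. That of sg-1 was lost with the sheet as a covariate (0.16, adjusted p = 0.287), where sg-3 kept its call.

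A ratio of sgRNAs within a library does not depend on scaling. Over all 12 pairs of sgRNAs of the same receptor, in both backgrounds, 24 such ratios were compared between arms after the values above were seen. The ratio of Ltbr sg-1 to sg-2 was 0.32 log2 units higher in IgA than in vehicle mice (SE 0.073, two-sided exact permutation p = 0.0286, which is the lowest possible with 4 mice per arm, adjusted p = 0.137). The ratio of sg-2 to sg-3 changed by −0.31 (SE 0.081, with the same exact permutation p). That of sg-1 to sg-3 differed by 0.017 (SE 0.068, exact permutation p = 0.83). These ratios restate the values above and are no further evidence. For Tnfrsf1b in ITPK1-WT cells, the ratio of sg-1 to sg-3 was 0.099 higher in IgA mice (SE 0.036, exact permutation p = 0.0286). The arms lay apart for 5 of the 24 ratios, those of Ltbr and Tnfrsf1b given here and Cd27 sg-2 to sg-3 in both backgrounds. All 5 had the lowest possible exact permutation p, so over 24 ratios none of them could pass the adjustment. No conclusion is drawn from that.

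Cd27 in ITPK1-WT cells went the other way without passing. It stood at 10329, 10107, 10123 and 10174 in vehicle mice and at 9959, 9721, 9719.5 and 10022 in IgA mice. All IgA mice lay below all vehicle mice, yet the log2 fold change was small, at −0.053 (SE 0.014, adjusted p = 0.0605). Cd27 sg-2 stood at 5325, 5370, 5310.1 and 5380.4 in vehicle and at 4990.1, 4923, 4905 and 4959 in IgA mice, and fell by 0.12 on the log2 scale (SE 0.0072, adjusted p = 0.00189). Cd27 sg-3, of like abundance, changed by 0.024 (SE 0.029, adjusted p = 0.604), with overlapping groups. The ratio of sg-2 to sg-3 changed under IgA by −0.14 with ITPK1 present (SE 0.028) and by −0.10 without it (SE 0.035), with IgA mice apart from vehicle mice in both (exact permutation p = 0.0286 each, adjusted p = 0.137). The size of the Cd27 change rests on the scaling. When libraries were scaled to the non-targeting sgRNAs its log2 fold change was −0.00025, and the call of sg-2 was lost (−0.066, adjusted p = 0.0975).

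Tnfrsf1b and Tnfrsf8 did not pass in ITPK1-WT cells. Tnfrsf1b stood at 11275, 10709, 10881.5 and 11269.5 in vehicle and at 10940.2, 11122, 10883 and 10766 in IgA mice, with a log2 fold change of −0.017 (SE 0.021, adjusted p = 0.538). Tnfrsf8 stood at 12815, 12845, 12789 and 12813 in vehicle and at 13319, 13197, 12711 and 12487 in IgA mice, with a log2 fold change of 0.0097 (SE 0.022, adjusted p = 0.702). The vehicle mice were close together for Tnfrsf8, and the IgA mice lay on both sides of them, 2 above and 2 below. The 6 sgRNAs of both genes ranged from −0.058 to 0.043. Scaled to the non-targeting sgRNAs, Tnfrsf8 was called, at 0.061 (adjusted p = 0.0153). Over single sgRNAs, 4 of the 12 passed, 2 higher and 2 lower, where 27.8% of all 252 did, 13.9% in each direction. The arms lay apart for 3 of the 12 and for 22.3% of all.

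**Figure D2:**
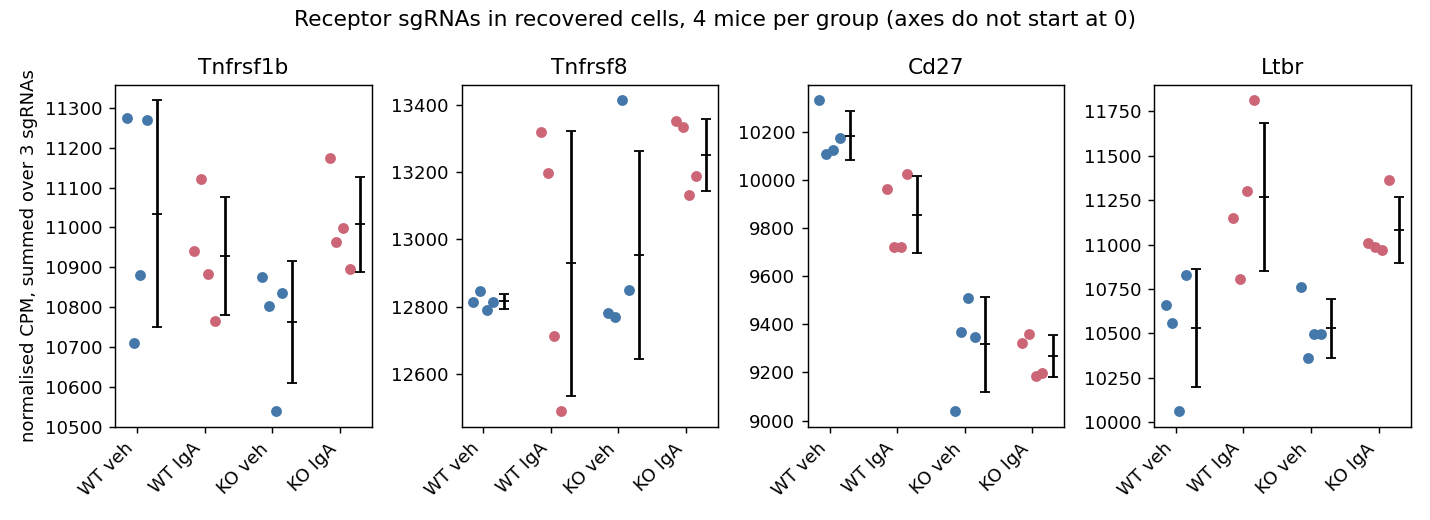
Normalised CPM summed over the 3 sgRNAs of each receptor in ITPK1-WT (WT) and ITPK1-KO (KO) cells recovered from vehicle (veh, blue) and IgA (red) mice; each point is 1 mouse, and the black mark and bar are the mean ± SD of 4 mice. Axes do not start at 0 and differ between receptors. Ltbr is higher in IgA mice in both backgrounds, with 1 IgA mouse below the highest vehicle mouse in ITPK1-WT cells, and the Cd27 points of the KO cells lie below those of the WT cells in both arms.

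The second comparison asked the same where ITPK1 is deleted. Ltbr was again the receptor that passed, with sgRNAs 1.05-fold as abundant in IgA mice as in vehicle mice. Of all genes 13.2% passed, and of the receptors 1 of 4. Ltbr stood at 10758, 10364, 10495 and 10499.5 in vehicle and at 11007, 10986, 10971 and 11360 in IgA mice. All IgA mice thus lay above all vehicle mice. Mouse 8, the highest, had the fewest sorted cells of the IgA mice (955000), and mouse 7, the lowest of them, had 1500000. The log2 fold change was 0.076 (SE 0.016, adjusted p = 0.0114). Mouse 5 lay 0.064 above the vehicle mean and mice 6 to 8 lay 0.077 above it, with a vehicle SD of 0.023. The call was lost with the sheet as a covariate (0.063, adjusted p = 0.373) and without mouse 2 (0.068, adjusted p = 0.0529).

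Of the single sgRNAs, 1 of 12 passed, where 10.4% of all did, and the arms lay apart for 1, where they did for 12% of all. It was Ltbr sg-3, at 3235, 3318, 3045 and 3362 in vehicle and at 3489, 3783, 3539 and 3959 in IgA mice, without overlap. Its log2 fold change was 0.18 (SE 0.053, adjusted p = 8.02e-05), against 0.10 for the highest non-targeting sgRNA. By size in either direction, it ranked 23 among 251 sgRNAs. With the sheet as a covariate the log2 fold change was 0.099 and the call was lost (adjusted p = 0.694). Ltbr sg-1 was at 0.065 (SE 0.068, adjusted p = 0.468) and sg-2 at 0.0032 (SE 0.046, adjusted p = 0.971), both with overlapping groups. The sum for Ltbr in these cells is thus mostly that of sg-3, the sgRNA with the lowest GC content. The part of base composition in this value was not tested.

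For Tnfrsf1b, which stood at 10876, 10804, 10539 and 10834 in vehicle and at 11174, 10963, 10998 and 10896 in IgA mice, all IgA mice lay above all vehicle mice. Groups lay apart in this way, in either direction, for 22.4% of all genes, and for Ltbr and Tnfrsf1b among the 4. The log2 fold change of Tnfrsf1b was 0.033 (SE 0.013) and did not pass (adjusted p = 0.232). Tnfrsf8 stood at 12779, 12768, 13414 and 12848 in vehicle and at 13352, 13334, 13132 and 13190.5 in IgA mice. Vehicle mouse 3 was above all IgA mice, and the log2 fold change of 0.038 (SE 0.018) did not pass (adjusted p = 0.165). Without mouse 3 it did (0.052, adjusted p = 0.0363). Cd27 differed by −0.0044 (SE 0.017, adjusted p = 0.904), with 9038, 9368, 9509 and 9349 in vehicle and 9324, 9359.7, 9185 and 9199 in IgA mice. The median log2 fold change over the 12 receptor sgRNAs was 0.026, against 0.0094 for all targeting sgRNAs.

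**Figure D3:**
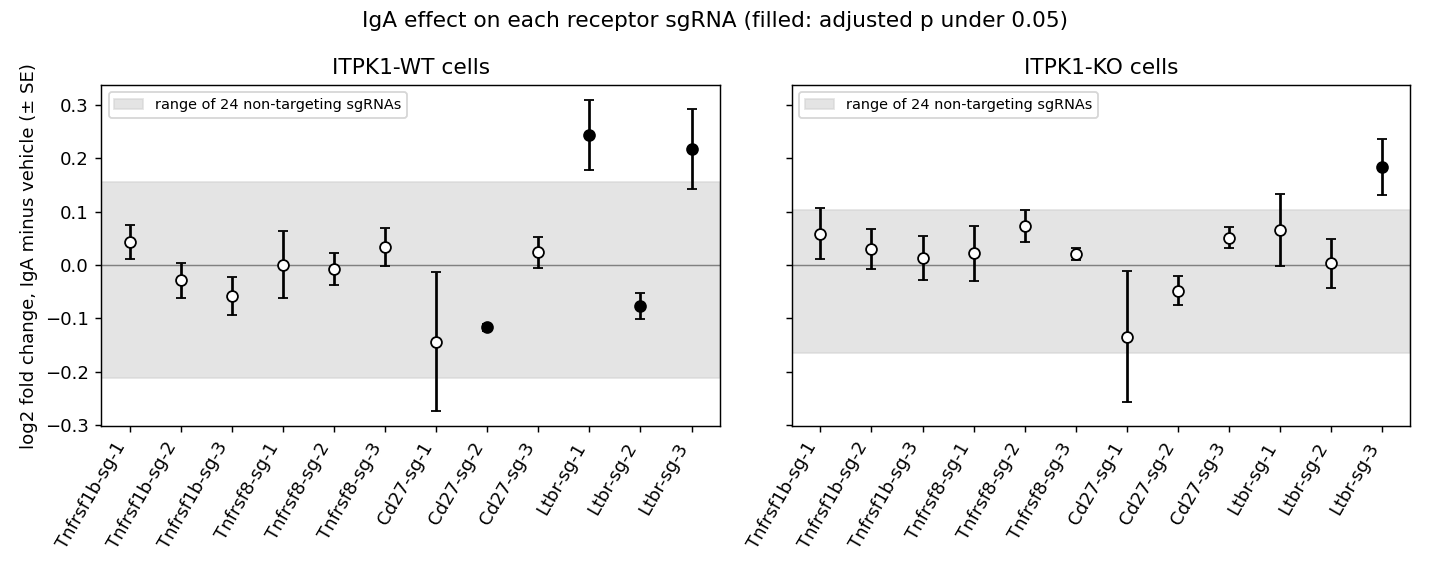
Log2 fold change (IgA minus vehicle, ± SE, 4 mice per arm) of each receptor sgRNA in ITPK1-WT and ITPK1-KO cells; filled points have an adjusted p under 0.05, and the grey band is the range of the 24 non-targeting sgRNAs. Ltbr-sg-1 (0.24) and Ltbr-sg-3 (0.22) lie above the band in ITPK1-WT cells and Ltbr-sg-3 (0.18) in ITPK1-KO cells, while Ltbr-sg-2 lies inside it in both.

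The authors' deposited tables give the same direction for Ltbr sg-1 and sg-3, without a call. In the authors' deposited table for ITPK1-WT cells, sg-1 had a log2 fold change of 0.30 and sg-3 of 0.26, both with an FDR of 0.998, and 0 of the 252 sgRNAs had an FDR under 0.05. In the authors' deposited table for ITPK1-KO cells, Ltbr sg-3 was at 0.18 with an FDR of 0.132, and 12 sgRNAs passed, none of them against these 4 receptors. Cd27 sg-2 and Ltbr sg-2, both called lower in ITPK1-WT cells here (−0.12 and −0.077), were at −0.056 and −0.010 in the authors' deposited table. Both had an FDR of 0.998 there.

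The third comparison asked whether the IgA effect differed between backgrounds, which is the epistasis question of the screen. For the 4 receptors no difference was called, where 6.58% of all genes passed. The differences (ITPK1-KO minus ITPK1-WT) were 0.045 for Tnfrsf1b (SE 0.025, adjusted p = 0.534), 0.022 for Tnfrsf8 (SE 0.029, adjusted p = 0.733), 0.042 for Cd27 (SE 0.022, adjusted p = 0.578) and −0.020 for Ltbr (SE 0.039, adjusted p = 0.771). Among single sgRNAs, 0 of 12 passed in edgeR's test and 0 in DESeq2's Wald test, where 3.97% of all sgRNAs passed in edgeR's. An unadjusted p under 0.05 was found for 1 of the 12, and for 29 of all 252. It was Ltbr sg-1, at −0.18 (SE 0.094, adjusted p = 0.226). In ITPK1-KO cells Ltbr sg-1 stood at 2494, 2370, 2681 and 2397 in vehicle and at 2350, 2565, 2597 and 2826 in IgA mice, so that the arms overlapped there and not in ITPK1-WT cells. Without mouse 6 its difference was called (−0.23, adjusted p = 0.0344). With all mice, the rise of sg-1 was not shown to depend on ITPK1.

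The remaining pair of comparisons asked which receptors' sgRNAs differ in abundance between the backgrounds, in vehicle mice and in IgA mice. Cd27 was lower in ITPK1-KO cells in both. In vehicle mice its level was 0.914 of that in ITPK1-WT cells, and in IgA mice 0.941. The mice are those given above, and no ITPK1-KO library reached the level of any ITPK1-WT library of the same arm. The log2 difference was −0.13 in vehicle mice (SE 0.017, adjusted p = 6.86e-06) and −0.087 in IgA mice (SE 0.013, adjusted p = 0.00125). Such differences are common between the pools. In vehicle mice 47.4% of all genes passed, and in IgA mice 44.7%. Libraries of the backgrounds lay apart for 46.1% and 42.1% of genes, and for Cd27 among the 4 in both arms.

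The difference was there in each mouse. Within a mouse, ITPK1-KO minus ITPK1-WT cells gave −0.19, −0.11, −0.090 and −0.12 for Cd27 in vehicle mice 1 to 4 and −0.095, −0.055, −0.082 and −0.12 in IgA mice 5 to 8. All 8 were below 0. Relative to the median non-targeting sgRNA, Cd27 had differed by −0.13 before injection, in 1 library per background. From there it changed in vehicle mice by 0.024 ± 0.022 (ITPK1-WT) and by −0.0060 ± 0.040 (ITPK1-KO, SD, n = 4). In IgA mice it changed by 0.033 ± 0.037 and by −0.0054 ± 0.0089 in the same order. In fits scaled to the summed non-targeting reads, another scale, Cd27 differed by −0.14 in vehicle and by −0.13 in IgA mice after recovery. A difference in the same direction was thus already present in the 2 pools, which were transduced separately. Starting representation and growth cannot be told apart.

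Both abundant Cd27 sgRNAs shared in it. Cd27 sg-2 differed by −0.14 in vehicle mice (SE 0.025, adjusted p = 0.000131) and by −0.073 in IgA mice (SE 0.014, adjusted p = 0.0491). Cd27 sg-3 differed by −0.13 (SE 0.023, adjusted p = 0.00151) and by −0.10 (SE 0.027, adjusted p = 0.00826). For the scarce sg-1 the SE of 0.15 in vehicle mice exceeded its value of −0.067. The call of sg-2 in IgA mice was lost in 11 of 16 alternative settings, among them the mouse as a block (−0.074, adjusted p = 0.0502), and without any mouse but mouse 2. That of sg-3 was lost in vehicle mice without mouse 1 (−0.094, adjusted p = 0.0627) and in IgA mice without mouse 5 (−0.087, adjusted p = 0.0772) or mouse 8 (−0.084, adjusted p = 0.0883). For the summed Cd27 reads, both calls held without each mouse in turn.

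Ltbr as a whole did not differ between backgrounds, at −0.0016 in vehicle mice (SE 0.026, adjusted p = 0.958) and −0.022 in IgA mice (SE 0.029, adjusted p = 0.450). Its sgRNAs differed among themselves here too. Ltbr sg-1 was higher in ITPK1-KO cells of vehicle mice (0.16, SE 0.044, adjusted p = 0.0132), with all 4 ITPK1-KO libraries above all 4 ITPK1-WT libraries, and was at −0.027 in IgA mice (SE 0.083, adjusted p = 0.747). Before injection it had been higher by 0.36 in ITPK1-KO cells. Its call in vehicle mice was lost without mouse 1 (adjusted p = 0.0717) or mouse 3 (adjusted p = 0.138). Ltbr sg-2 (−0.065, adjusted p = 0.118) and sg-3 (−0.020, adjusted p = 0.781) did not pass in vehicle mice.

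Tnfrsf1b and Tnfrsf8 did not differ past the threshold in either arm. Tnfrsf1b was at −0.035 in vehicle (SE 0.021, adjusted p = 0.158) and at 0.0095 in IgA mice (SE 0.012, adjusted p = 0.735). Tnfrsf8 was at 0.013 (SE 0.017, adjusted p = 0.590) and 0.035 (SE 0.023, adjusted p = 0.119). Of their sgRNAs, Tnfrsf1b sg-1 had the largest difference, at −0.10 in vehicle mice (SE 0.029, adjusted p = 0.0754). With the mouse as a block it was called (adjusted p = 0.0498). In all, 3 of 12 receptor sgRNAs passed in vehicle mice, 1 higher and 2 lower, against 31.7% of all sgRNAs (13.9% higher, 17.9% lower). In IgA mice 2 of 12 passed, both lower, against 34.9% of all (18.3% lower). The backgrounds lay apart for 4 and 2 of the 12, against 31.5% and 29.1% of all.

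**Figure D4:**
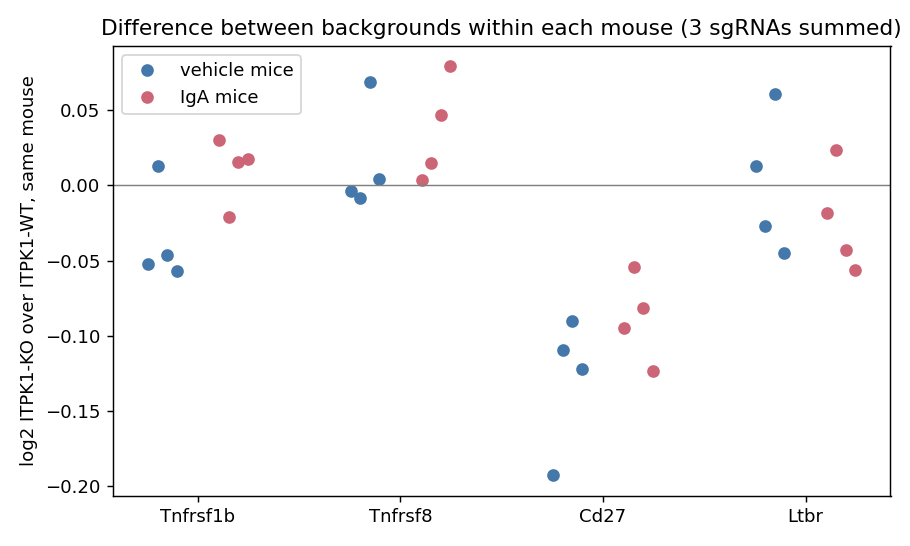
Log2 difference between ITPK1-KO and ITPK1-WT cells of the same mouse for each receptor (3 sgRNAs summed); each point is 1 mouse, blue for vehicle and red for IgA. For Cd27 all 8 mice lie below 0, between −0.19 and −0.055, while the mice of the other receptors lie on both sides of 0, though all 4 IgA mice lie above 0 for Tnfrsf8.

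Relative to the cells before injection, with the median non-targeting sgRNA of each library as the reference, the receptors moved little in vehicle mice. Ltbr changed in vehicle mice by 0.029 ± 0.047 with ITPK1 present and by −0.063 ± 0.027 with ITPK1 deleted (SD, n = 4). In IgA mice it stood at 0.18 ± 0.074 and at 0.019 ± 0.027 in the same order. In ITPK1-KO cells the difference between arms thus came with vehicle mice below and IgA mice near the starting level, and in ITPK1-WT cells with IgA mice above it. Ltbr sg-1 in ITPK1-WT cells was at 0.18 ± 0.029 in vehicle and at 0.48 ± 0.15 in IgA mice. The means of the other 3 receptors lay between −0.015 and 0.024 in vehicle and between −0.0054 and 0.077 in IgA mice. They rest on the reference, since in ITPK1-WT cells of IgA mice the median non-targeting sgRNA itself changed by −0.076 as a share of all reads. As such shares, Ltbr there stood at 0.11 in place of 0.18, Tnfrsf8 at 0.0056 in place of 0.077, Cd27 at −0.038 in place of 0.033 and Tnfrsf1b at −0.037 in place of 0.034. With 1 starting library per background, no test was made of these values. The vehicle libraries are on another sample sheet than the starting libraries, so change over time and sheet cannot be told apart in them.

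Among the 11 other genes of the pathway that the library holds, 5 passed under IgA in ITPK1-WT cells, where 36.8% of all genes did. Rises and falls here are of the summed reads of the sgRNAs against a gene, not of its product. Tnfrsf1a, the death domain receptor that shares the ligand TNF with Tnfrsf1b, rose by 0.061 (SE 0.016, adjusted p = 0.0280), where Tnfrsf1b was at −0.017. The deubiquitinase Cyld rose by 0.13 (SE 0.025) and its partner Spata2 by 0.12 (SE 0.038). Fadd, which links death receptors to caspase-8, fell by 0.14 (SE 0.018), and the kinase Ripk1 fell by 0.072 (SE 0.025). Fas, Tnfrsf10b, Tnfrsf21, Tnfrsf25, Birc2 and Casp8 did not pass. In ITPK1-KO cells Cyld rose by 0.19 (SE 0.024) and Ripk1 fell by 0.26 (SE 0.029), where 13.2% of all genes passed, and the other 9 did not pass, Tnfrsf1a among them (0.058, SE 0.027, adjusted p = 0.122). The difference of the IgA effects passed for Ripk1 alone of the 11 (−0.19, SE 0.038). Of the 5 receptors with a death domain, 1 was called under IgA with ITPK1 present and 0 with ITPK1 deleted, and of Tnfrsf1b, Tnfrsf8, Cd27 and Ltbr 1 of 4 was called in each, against 36.8% and 13.2% of all genes. Whether the classes differ was not tested.

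Between backgrounds, 6 of the 11 passed in vehicle mice, where 47.4% of all genes did. Birc2 (0.066), which TRAF-binding receptors recruit, Ripk1 (0.12) and Tnfrsf25 (0.045) were higher in ITPK1-KO cells, and Cyld (−0.079), Fadd (−0.11) and Spata2 (−0.17) were lower. In IgA mice 3 passed, where 44.7% of all did, Birc2 (0.087) higher and Ripk1 (−0.073) and Spata2 (−0.24) lower in ITPK1-KO cells. Cd27, at −0.13 and −0.087, was within this range. Tnfrsf19, a further receptor of the superfamily that lacks a death domain, was looked at after the gene names were seen and was lower in ITPK1-KO cells in vehicle mice (−0.053, SE 0.013, adjusted p = 0.00754) and in IgA mice (−0.045, SE 0.0083, adjusted p = 0.0220).

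The receptors' profiles were compared with those of all other genes over the 16 recovered libraries, as the root mean square difference of log2 normalised CPM after each gene was centred within each background. The profiles closest to Ltbr were those of Kcnip1 (0.021) and Sycp2 (0.025), against a median of 0.064 over all other genes. The closest to Cd27 were Tnfrsf19 (0.021) and Nudt13 (0.022), and the closest to Tnfrsf1b were S100a7a (0.025) and Tnfrsf21 (0.026). The 4 receptors were not each other's closest genes. Tnfrsf1b and Tnfrsf8 were the closest pair among them (0.034), at rank 14 from Tnfrsf1b and rank 10 from Tnfrsf8. Ltbr was farthest from Cd27 (0.069, rank 48 of 75 from Ltbr). These likenesses are a description over libraries that share pools and mice.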

How the data were processed

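The authors deposited raw counts, as whole numbers of reads for each sgRNA. Reads with mismatches to the library had been removed, per the series' design text. Scores were made with MAGeCK RRA 0.5.6, per the submitters' processing notes, and an aligner is not named in the sources used here. The authors' deposited MAGeCK tables hold for each sgRNA the log2 fold change, the two-sided p-value and the FDR. Other text fields, per the file headers, are the sgRNA sequences and the sample legend with the arm of each mouse and the cells sorted (657000 to 2000000 per library). No file names a genome build, so no target coordinates are given. Chromosomes and neighbouring genes come from the GRCm38.p6 annotation.

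Counts were tested in R 4.3.3 with edgeR 4.0.16: TMM scaling, a filter at 10 reads on the mean per sgRNA, quasi-likelihood test, Benjamini-Hochberg over all 252 sgRNAs (251 in ITPK1-KO cells) or 76 genes (reads summed over sgRNAs), threshold 0.05. IgA was compared with vehicle within each background. Differences between backgrounds came from 1 fit of 16 libraries. SEs come from log2 normalised CPM per mouse and do not enter the p-values. Printed CPM were scaled over all 16 libraries, so their ratios differ slightly from the fitted folds. Change from the start was the log2 ratio of shares with 0.5 reads added, relative to the non-targeting median. The procedure was tested on simulated data.

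Reads carry no molecular identifiers, so counts give a lower limit of the error. Chi-square per degree of freedom within groups ran from 2.24 to 5.62, so no library was a duplicate. Both libraries of a mouse come from the same animal, which pairs them. Over 238 sgRNAs their deviations correlated with r from −0.083 to 0.26. Reported values have no block for the mouse. Members, pathway list (the pathway genes that the library holds, with Ripk1 and Tnfrsf1a always given) and the rule for likeness (the 2 closest genes, not reported here for Tnfrsf8) were chosen with earlier results of these data known. Alternatives were DESeq2 1.42.0 (size factors, Wald test), total counts, scaling to non-targeting sgRNAs, other filters (none, 100 reads), robust dispersion, 1 joint fit, the sheet as a covariate, the mouse as a block, limma 3.58.1 on the mean log2 CPM over sgRNAs, 5 reads added, shares without a reference, and each mouse left out.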

Additional observations from a re-analysis of the deposited data

Results flagged for a closer look

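In 4 of 64 groups of 4 mice (16 sgRNAs or genes in 4 groups each), the highest or lowest mouse stood far from the other 3 by Dixon's criterion, which chance meets in about 1 of 20 groups. For Tnfrsf8 in ITPK1-KO cells of vehicle mice, mouse 3 stood at 13414 normalised CPM, above the other 3. That library was the shallowest, with 317564 reads. For Ltbr in ITPK1-KO cells of IgA mice, mouse 8 was the highest, at 11360. For the scarce Cd27 sg-1 in ITPK1-WT cells of vehicle mice, mouse 3 was the highest, at 308. For Ltbr sg-3 in the same cells and arm, mouse 3 was the lowest, at 2937. Without mouse 3, Ltbr in ITPK1-WT cells kept its call.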

How the results depend on the processing

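Of the receptor calls, Cd27 lower in ITPK1-KO cells of vehicle mice held under all 17 alternatives, and in IgA mice it was lost in limma on the mean over sgRNAs (−0.080, adjusted p = 0.0950). With the sample sheet as a covariate, where the IgA mice are compared through mouse 5 alone, Ltbr was not called (0.075 with ITPK1 present, 0.063 without), Ltbr sg-1 in ITPK1-KO cells was at −0.074, Cd27 in ITPK1-KO cells at 0.0011, and the difference for Tnfrsf8 at −0.0091. All calls fell with it, to 17 sgRNAs and 10 genes with ITPK1 present, 15 and 5 with ITPK1 deleted, and 4 and 2 for the difference, and receptor sgRNA calls to 1 and 0 under IgA (ITPK1-WT, then ITPK1-KO). With non-targeting scaling, the IgA effect in ITPK1-WT cells was 0.14 for Ltbr (called), 0.034 for Tnfrsf1b and 0.061 for Tnfrsf8 (called), with 2 receptor sgRNAs called. On that scale Cd27 in ITPK1-KO cells was at 0.010, the difference for Tnfrsf8 at −0.0092, and ITPK1-KO minus ITPK1-WT in IgA mice at −0.031 for Tnfrsf1b and −0.0057 for Tnfrsf8. It also split all sgRNA calls into 70 higher and 6 lower in place of 35 and 35 with ITPK1 present, 17 and 8 in place of 14 and 12 with ITPK1 deleted, 2 and 7 in place of 4 and 6 for the difference, and 18 and 63 in place of 42 and 46 between backgrounds in IgA mice. Robust dispersion called Cd27 in ITPK1-WT cells (−0.053, adjusted p = 0.0495).

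Between backgrounds in vehicle mice, Ltbr lay near 0 on either side, at 0.00099 with DESeq2's size factors, 0.0042 with total counts, 0.0012 in DESeq2's Wald test and 0.026 in limma. With the mouse as a replicate block, 1 receptor sgRNA (Cd27 sg-3) was called between backgrounds in IgA mice in place of 2. It was likewise the 1 left with total counts, a minimum of 100 reads and robust dispersion. In vehicle mice the block added a call, that of Tnfrsf1b sg-1 (−0.10, adjusted p = 0.0498). Among the receptor results followed through the alternatives, the block changed no other call. As shares of all reads, changes from the start moved by over 1 SD in IgA mice for Cd27 (−0.038) and Tnfrsf1b (−0.037) in ITPK1-WT cells, for Tnfrsf8 in both backgrounds (0.0056 with ITPK1 present, 0.059 without), and for Tnfrsf8 in ITPK1-WT cells of vehicle mice (−0.010).

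With each mouse left out in turn, the IgA effect on Ltbr ran from 0.068 to 0.12 with ITPK1 present and from 0.064 to 0.085 with ITPK1 deleted. That on Tnfrsf8 ran from −0.0025 to 0.025 and from 0.032 to 0.052, and that on Cd27 in ITPK1-KO cells from −0.019 to 0.0036. Ltbr sg-2 ran from −0.032 to 0.025 in ITPK1-KO cells. Between backgrounds in vehicle mice, Ltbr ran from −0.020 to 0.014, Tnfrsf8 from −0.0027 to 0.019, Cd27 sg-1 from −0.14 to 0.025 and Ltbr sg-3 from −0.044 to 0.0026. Calls in ITPK1-WT cells ran from 45 to 94 sgRNAs (fewest without mouse 7) and from 17 to 32 genes, and those of the difference from 8 to 17 sgRNAs (most without mouse 6). Receptor sgRNA calls ran from 0 to 1 for the difference, from 1 to 3 between backgrounds in vehicle mice and from 0 to 2 in IgA mice. Depth limits Cd27 sg-1 most, with 80 to 185 reads per recovered library. The cause of the changes under scaling and sheet was not tested.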
